A study of Mus musculus with 21 samples.

Results

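Mouse embryonic stem cells (ESCs) kept in 2iL medium on feeder cells were compared with ESCs kept in the same medium without feeder cells, labelled 2iL-F. The comparison rests on all single-nucleotide variants (SNVs) in the deposited lists of 4 exome libraries, 2 per side, out of 21 samples in the series, of which 18 had an SNV list and 10 of those were ESC libraries. The 4 lists held 3203 distinct SNV sites, against 4358 in the 10 ESC lists together. The libraries were grouped by their culture labels.

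Both sides were labelled as an ESC line of strain C57BL6X129S6F1. Both received N2B27 medium, 1000 IU mLIF (leukaemia inhibitory factor), 3 µM Chir99021 (an inhibitor of the kinase GSK3) and 1 µM PD0325901 (an inhibitor of the kinase MEK). The 2iL cells had feeders and the 2iL-F cells had none, and each side has a library labelled 3 and a library labelled 5. The labels do not say what these numbers are, whether the libraries came from separate cultures or derivations, how many passages the cells had, or whether feeder cells were removed before DNA was taken. P-values here therefore measure only the spread between these libraries, which may be technical. Each list holds SNVs of a library against the same fibroblast DNA, called M_MEF in the files, so the control is shared by all 4 libraries. DNA carries no expression, so the ESC label could not be set against marker genes.

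Feeder cells are fibroblasts that supply attachment and secreted factors to stem cells. In 2i medium the GSK3 inhibitor stabilises β-catenin and the MEK inhibitor blocks the FGF-driven signal to differentiate, while LIF acts through STAT3. Together they hold mouse ESCs in the naive state with or without feeders. Mouse ESCs in culture gather point mutations and gain whole chromosomes over time, and chromosome 8 is among those they are known to gain.

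The sequence around a listed SNV was available where it fell in a promoter window, from 250 bases before to 50 after a gene start (RefSeq, GRCm38.p6, the assembly also called mm10). Of the 3203 sites, 67 lay in such a window, in 70 pairs of site and gene, and the base in the window was the reference base of the list in 70 of 70 pairs. The 3 windows below are examples, chosen after their values were seen. The first 2 hold a site listed by both libraries of 1 side and neither of the other, and the third holds a 5′ UTR site listed by all 4. Each is written 5′ to 3′ on the gene's strand, and the capital marks the reference base of the SNV.
Olfr462 (both 2iL libraries, chr11:87889845-87889872, minus strand): gggtgtcagagtttGtcttcctgggctt
Vmn1r124 (both 2iL-F libraries, chr7:21260772-21260800, minus strand): tttgagtttttataCattcattgtttttc
Klra7 (all 4, chr6:130231663-130231691, minus strand): attttaacatttttCgtagaaaccactca
Olfr462 encodes an odorant receptor, Vmn1r124 a vomeronasal receptor and Klra7 a receptor of natural killer cells. All 3 belong to large gene families with similar copies, and the Vmn1r124 site lies in an annotated segmental duplication. A 2iL-F library listed another SNV 236 bp from the Olfr462 site. At the Vmn1r124 site a 2iL library listed one 6 bp away, both 2iL libraries had a call within 10 kb, and 5 of the 6 other ESC libraries listed the site itself. The Olfr462 site carried the changed base in 7 of 80 reads of 2iL library 3 and 10 of 60 of library 5. The Vmn1r124 site rested on 8 of 15 and 13 of 30 reads of 2iL-F libraries 3 and 5. At the Klra7 site the fraction of reads with the changed base was 0.377 and 0.415 in the 2iL libraries and 0.581 and 0.54 in the 2iL-F libraries. The 2 sides did not overlap there, but the difference of 0.92 in log2 allele odds (SE 0.28) did not pass the adjustment over all sites (limma, adjusted p = 0.225).

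The total number of SNVs did not separate the sides, while the number of coding SNVs did. The lists held 1810 and 1858 calls in 2iL libraries 3 and 5, and 1816 and 1828 in 2iL-F libraries 3 and 5. The means were 1834 ± 33.9 (SD, n = 2) for 2iL and 1822 ± 8.49 (SD, n = 2) for 2iL-F, and the 2iL-F values lay within the range of the 2iL values. A two-sided exact permutation test gave p = 1, and 2 libraries against 2 cannot go below 0.333. Coding SNVs numbered 424 and 415 in 2iL and 392 and 382 in 2iL-F, means of 419.5 ± 6.36 (SD, n = 2) and 387 ± 7.07, and the sides did not overlap (exact permutation p = 0.333). The other 6 ESC libraries had 379 to 398 coding SNVs, so both 2iL libraries were above all 8 others. SNVs that change a protein numbered 221 and 222 in 2iL, 208 and 202 in 2iL-F and 194 to 213 in the other 6. Both counts kept the sides apart under each of the 5 filters run, with differences of −18 to −32 coding and −9 to −18 protein-changing SNVs. Median read depth at the calls was 60 and 65 in 2iL and 58 and 65 in 2iL-F. No 2 calls of a list lay closer than 10 kb on a chromosome, the smallest gaps being 10017 to 10032 bp, so a site can be missing from a list because a neighbour was kept.

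The shares of the 6 kinds of base change overlapped between the sides when all calls were used. C>T changes, the commonest class, made up 38.7 and 38.0% of calls in 2iL and 38.1 and 39.1% in 2iL-F. T>C followed with 22.7 and 22.1% against 22.4 and 21.4%. C>A changes were 11.8 and 12.5% against 13.1 and 12.4%. T>A changes were at 9.56 and 10.4% in 2iL and 9.58 and 9.30% in 2iL-F, a difference of −0.559 percentage points. Across the 6 strand-folded classes the exact permutation p was 0.667 to 1, and 0.8 to 1 after Benjamini-Hochberg adjustment over the classes. With at least 5 changed reads the difference in C>T grew from 0.219 to 1.48 percentage points and that in T>C from −0.486 to −1.03, and the sides did not overlap in either (exact permutation p = 0.333). Missense and stop SNVs were 52.1 and 53.5% of coding SNVs in 2iL and 53.1 and 52.9% in 2iL-F, a difference of 0.162 percentage points (exact permutation p = 1).

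Of the 3203 sites, 878 were listed by all 4 libraries, and 137 by both 2iL libraries and neither 2iL-F library (4.28% of sites). The reverse pattern held 127 sites (3.97%). The pairs made of 1 library from each side held 90 to 102 sites that the remaining 2 libraries lacked. Single libraries held 293 to 355 sites of their own. The Jaccard index, the share of the union of 2 lists that both hold, was 0.478 within 2iL, 0.520 within 2iL-F and 0.466 to 0.489 across sides. The 2iL-F pair was the only pair above the range across sides.

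**Figure D1:**
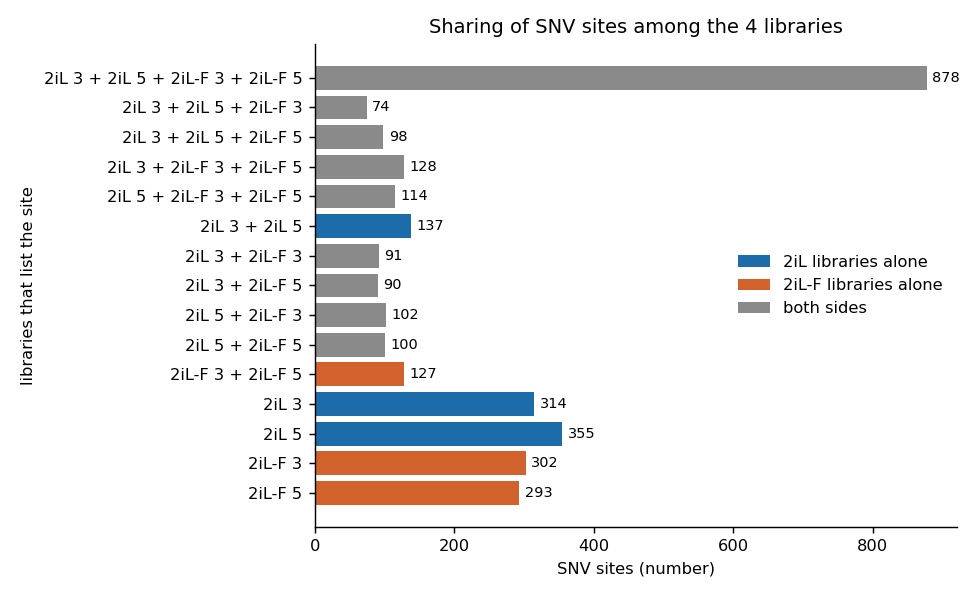
Horizontal bars give the number of SNV sites (horizontal axis) listed by exactly the libraries named on the vertical axis, for all 15 combinations of the 4 libraries. The 878 sites shared by all 4 form the longest bar, and the 137 (blue, 2iL 3 + 2iL 5) and 127 (orange, 2iL-F 3 + 2iL-F 5) sites are the side-restricted sets.

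The 137 sites of 2iL were at low fractions. Their median fraction was 0.1475 at a median depth of 70 reads, on a median of 8 reads with the changed base. The 127 sites of 2iL-F had a median fraction of 0.1945 at 50.5 reads, on a median of 7 such reads. At the 878 sites listed by all 4, the median was 0.3 at 78 reads, on 21 such reads. Segmental duplications held 57.7% of the 2iL sites and 52.0% of the 2iL-F sites, against 39.98% of the sites in all 4, and annotated repeats held 14.6, 29.1 and 9.68%. Sites held only by 1 library from each side had median fractions of 0.1695 to 0.2875, on medians of 7 to 9 such reads. Duplications held 54.9 to 70% of them and repeats 11.1 to 19.8%. For sites of a single library these were 0.154 to 0.2, 5 reads, 45.4 to 48.1% and 22.3 to 26.6%. The 2iL set had 37 intronic and 51 intergenic sites, and the 2iL-F set 44 and 54.

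Many of these sites had a call of the other side nearby or were listed in another culture condition. For 72 of the 137 and 70 of the 127, a library of the other side listed another SNV within 10 kb, which left 65 and 57 sites. Another ESC culture condition listed the site in all but 30 of the 137 and 20 of the 127, and 4 and 7 of them were in all 6 other ESC libraries. Side-restricted sites with no call of the other side within 10 kb and in no other ESC library numbered 21 and 15.

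Protein-changing SNVs restricted to 1 side were all missense, with no stop or splice change. They made up 16 of the 137 sites in 2iL and 15 of the 127 in 2iL-F, against 337 of all 3203 sites. In 2iL they fell in 7 receptor genes of smell and pheromone sensing, namely Olfr462, Olfr1480, Olfr1282, Olfr1250, Vmn2r16, Vmn2r54 and Vmn1r174. The other 2iL genes were Bclaf1, Nsrp1, Psmb3, Micall2, Adam9, Ccnb2, Zfp747, Gm13212 and the Klra15 group, a set of natural killer receptor genes. In 2iL-F they fell in Bclaf1, Srsf5, Gle1, Kars, Hmgb1, Slc4a10, Dnah7a, Cdv3, Garem, Prh1, Naip7/Naip6, Gm13084, 4930453N24Rik and the vomeronasal receptor genes Vmn1r127 and Vmn2r33. The share of smell and pheromone receptor genes among all protein-changing sites was not counted. Of the 31 sites, 9 in 2iL and 8 in 2iL-F had no call of the other side within 10 kb.

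Only 5 of the 31 missense sites were in none of the other 6 ESC libraries. Nsrp1, a splicing regulator of nuclear speckles, carried A196V (exon 6, chromosome 11, position 77048380) in 4 of 70 and 4 of 52 reads of 2iL libraries 3 and 5. Micall2, an adaptor that links Rab traffic to actin at cell junctions, carried G234R (exon 6, chromosome 5, position 139716787) in 5 of 60 and 4 of 66 reads. These 2 changes rest on 4 or 5 reads in each library. Olfr1480 Y192H lay in a segmental duplication and was carried by 8 of 224 and 7 of 235 reads. Ccnb2, a mitotic cyclin, carried T294M (exon 7, chromosome 9, position 70410215) in 6 of 36 and 4 of 57 reads. The 2iL-F libraries listed a synonymous Ccnb2 SNV (C314C) 61 bp away instead, in 8 of 17 and 5 of 36 reads, within the spacing of the lists. All 6 other ESC libraries listed C314C too, so they could not list T294M either.

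Slc4a10 gave the only such missense site of 2iL-F. This gene encodes a sodium-coupled bicarbonate transporter, and R30H (exon 2, chromosome 2, position 62158246) was carried by 8 of 63 and 11 of 85 reads, fractions of 0.127 and 0.129. The nearest call of a 2iL library was 2367205 bp away, and the control had 87 reads there with no changed base. No 2iL read counts exist at the site in the lists, so an absence there is the absence of a call.

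In some genes the lists of the 2 sides named different SNVs. These lay within the 10 kb spacing of the lists, so a list could hold only 1 site of each pair. Whether the unlisted site was present too is not known. Bclaf1, a nuclear factor of transcription and RNA processing, had Y93H in 2iL (fractions 0.119 and 0.106) and V120M in 2iL-F (0.134 and 0.128), 81 bp apart. Kars, lysyl-tRNA synthetase, had H215H in 2iL (0.148 and 0.181) and F242L in 2iL-F (0.114 and 0.148), 170 bp apart. Dnah7a, an axonemal dynein heavy chain, had F3682F in 2iL (0.174 and 0.211) and V3683I in 2iL-F (0.15 and 0.141) at adjacent bases. In all 3 the sites of both sides were also listed by other ESC libraries, from 1 to 4 of the 6.

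The missense site with the highest fraction was in 2iL-F. Hmgb1, an abundant chromatin protein, carried D190E in 30 of 57 and 30 of 65 reads, fractions of 0.526 and 0.462, with no call of a 2iL library within 2472810 bp. The site lies in an annotated repeat. It was also listed by 2 other ESC libraries, LCDM 5 and SL 3, at 0.391 to 0.426, and by 7 tumour libraries. The other 2iL-F missense sites lay between 0.048 and 0.282 and the 2iL ones between 0.03 and 0.286.

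**Figure D2:**
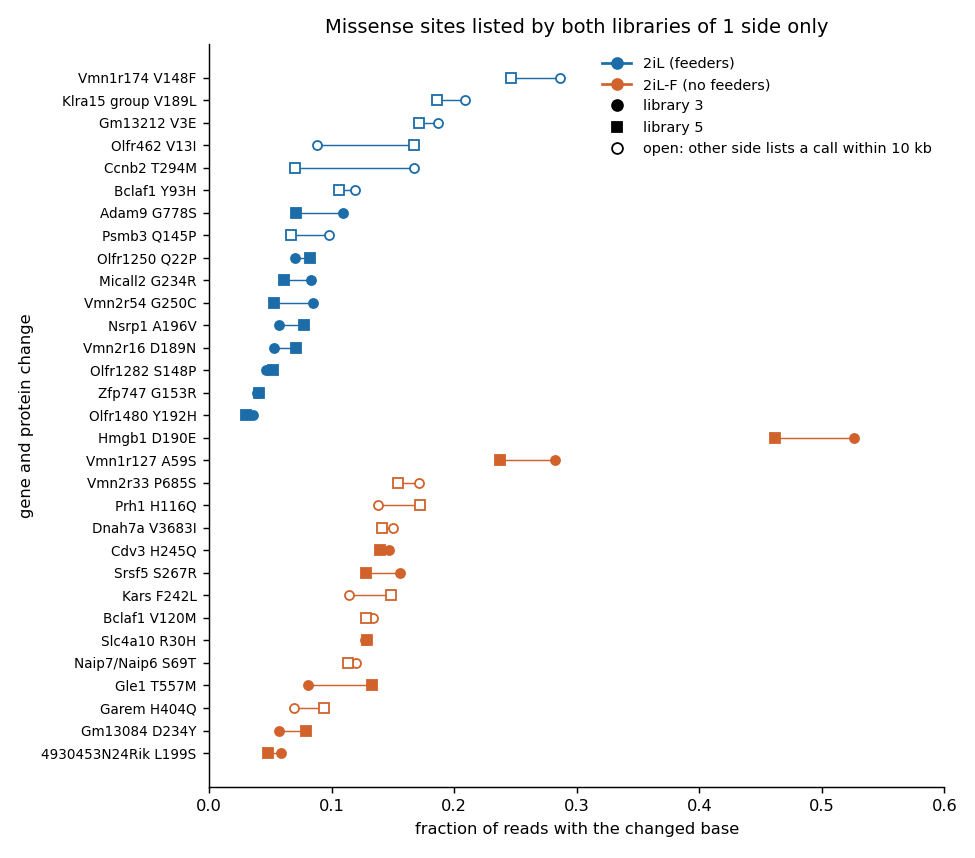
Fraction of reads with the changed base (horizontal axis) at each missense site listed by both libraries of 1 side only (vertical axis, gene and protein change), for 16 sites of 2iL in blue and 15 of 2iL-F in orange. Circles are library 3, squares library 5, and open symbols mark sites where the other side lists a call within 10 kb. Hmgb1 at 0.526 and 0.462 is the highest.

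With several restrictions combined, 11 sites were restricted to 2iL and 6 to 2iL-F. These were in no other ESC library, and neither the other side nor any other ESC library had a call within 10 kb. They also lay outside duplications and repeats and had at least 20 reads in both libraries. The 2iL sites had fractions of 0.027 to 0.119, on 3 to 12 reads with the changed base. They lay in Nsrp1 and Micall2 (missense), Olfr1280, Cops2, Anapc1 and Epc2 (synonymous), Cd47, Tmem63b, Catsper1 and Pcmtd1 (intronic), and 1 intergenic stretch. Anapc1 encodes a subunit of the anaphase-promoting complex and Cops2 a subunit of the COP9 signalosome. No gene of the 2iL group was above 0.119.

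The 6 sites of 2iL-F reached higher fractions. An intergenic G>C change on chromosome 1, position 10869313, was carried by 61 of 137 reads in library 3 and 50 of 152 in library 5, fractions of 0.445 and 0.329. An intronic change in Scml2, an X-linked gene of the Polycomb family, was carried by 12 of 44 and 16 of 78 reads, 0.273 and 0.208. Slc4a10 R30H followed at 0.127 and 0.129. The intronic sites in Tnpo2, Esyt1 and Zfp850 were at 0.026 to 0.085. None of the 11 and none of the 6 sites was in a tumour list. Of all side-restricted sites, 3 of the 137 and 6 of the 127 were. The tumour lists have a WT column as control in place of M_MEF. The 11 and 6 sites were chosen by the presence of calls, so their levels are a description without a test.

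Of the 1432 genes with a call in any of the 4 libraries, 708 had calls in all 4. The lists named 51 genes in both 2iL libraries and neither 2iL-F library (3.56%), and 43 in the reverse (3%). The same site was listed in both libraries for 39 of the 51 and 38 of the 43. A protein-changing SNV was present in 14 and 10 of them, and 16 and 8 were in no other ESC library.

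Of the 21896 protein-coding genes in the RefSeq table, 1268 (5.79%) had a call in any of the 4 libraries, and the lists of genes below are given beside that share. Of 23 pluripotency genes, 3 had a call. Nanog, a core pluripotency factor, carried P72T in 2iL library 3 (8 of 31 reads), 2iL-F library 3 (10 of 43) and 2iL-F library 5 (14 of 39). All 6 other ESC libraries listed P72T too. In 2iL library 5 Nanog carried P61H (7 of 21 reads) 32 bp away, so Nanog had a missense SNV in all 4 libraries. Dppa4, a chromatin protein of early embryos, had an intronic SNV in both 2iL-F libraries and neither 2iL library. It rested on 2 of 2 and 2 of 5 reads in a repeat, and 1 other ESC library also listed it. Nr5a2, a nuclear receptor, had an intronic SNV in 2iL-F library 3 (4 of 14 reads), also listed by 4 other ESC libraries.

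Of 12 LIF and STAT3 genes, 2 had a call, 1 of them at a site listed by all 4 libraries. The other, Stat3, the transcription factor that LIF activates, had an intronic SNV in both 2iL-F libraries alone (4 of 23 and 3 of 19 reads), which 1 other ESC library also listed. Of 32 genes of the FGF, MEK and ERK pathway, the target of PD0325901, only Etv5 had calls. Etv5, a transcription factor downstream of ERK, carried R498H in 2iL library 3 on 5 of 129 reads and a 3′ UTR change in 2iL library 5 on 5 of 80. Of 25 Wnt and GSK3 genes only Btrc, which marks β-catenin for destruction, had a call, an intronic SNV in all 4 at 0.194 and 0.284 against 0.296 and 0.25.

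In the lists of 30 chromatin, 57 repair, 40 cell cycle and 42 adhesion genes, 1, 1, 2 and 2 sites of 6, 4, 7 and 6 were listed by all 4 libraries, against 31.6% of the sites annotated to a gene. Dnmt3b, a DNA methyltransferase, carried K383R in all 4 at 0.194 and 0.168 in 2iL and 0.261 and 0.183 in 2iL-F. Ezh1, a Polycomb methyltransferase, had calls at adjacent bases that crossed the sides, C310F in 2iL library 3 and 2iL-F library 5 and C310C in the other two. Ccne1, a cyclin that drives entry into S phase, carried R134C at 0.542 and 0.517 in 2iL and 0.681 and 0.633 in 2iL-F. Cdk4, a kinase of the G1 phase, carried A23T at 0.307 and 0.333 against 0.2 and 0.269. Mad2l1, a spindle checkpoint protein, had T176A in 2iL library 3 (0.348) and A6A in the other three (0.345 to 0.368), 4307 bp apart. Pold1, a replicative DNA polymerase, had the synonymous D287D in all 4, at 0.452 to 0.581, and Col4a1, a basement membrane collagen, G882G at 0.444 to 0.593. Of the 30 chromatin and 40 cell cycle genes, 5 each had a call. Of the 57 repair and 42 adhesion genes, 4 each had a call, at 4 and 6 sites. None of these repair and adhesion sites changed a protein. In the chromatin, cell cycle, pluripotency and FGF lists, 2 of 6, 4 of 7, 2 of 4 and 1 of 2 sites did. In the LIF and Wnt lists 0 of 2 and 0 of 1 did. The share was 18.9% of the 1787 sites annotated to a gene.

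At the 878 sites listed by all 4 libraries, allele fractions were slightly higher without feeders. The median fraction was 0.2935 and 0.286 in 2iL libraries 3 and 5 and 0.3075 and 0.311 in 2iL-F libraries 3 and 5. The sides did not overlap, with means of 0.290 ± 0.0053 (SD, n = 2) and 0.309 ± 0.00247. The difference of 0.0195 had p = 0.333 in the exact permutation test, the smallest that 2 against 2 allows. The mean fraction was higher in 2iL-F at 572 of the 878 sites. Both 2iL-F libraries were above both 2iL libraries at 246 sites (28%) and below both at 103 (11.7%). The median difference over sites was 0.14 in log2 allele odds.

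The shift was seen at most levels. For the 636 sites listed by all 10 ESC libraries, sites were grouped by their mean fraction in the 6 ESC libraries outside this comparison. Between 0.1 and 0.2 (117 sites) the medians were 0.149 and 0.144 in 2iL and 0.165 and 0.172 in 2iL-F. Between 0.4 and 0.5 (177 sites) they were 0.444 and 0.446 against 0.476 and 0.482, and 115 of these sites were higher in 2iL-F. Between 0.5 and 0.6 (31 sites) they were 0.533 and 0.541 against 0.556 and 0.493, so the sides overlapped there. Over all 636 sites the medians of the 2iL-F libraries, 0.333 and 0.339, were above those of the other 8 libraries, 0.3 to 0.32. An exact two-sided permutation over the 45 ways to pick 2 of 10 libraries gave p = 0.0222, the smallest it allows. At the 17 of these sites with a mean fraction above 0.7 in the other 6 libraries, the medians were 0.909 and 0.87 in 2iL and 0.98 and 1 in 2iL-F. The comparison with 8 libraries was chosen after the values had been seen, and the 8 other libraries are pairs from 4 conditions.

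**Figure D3:**
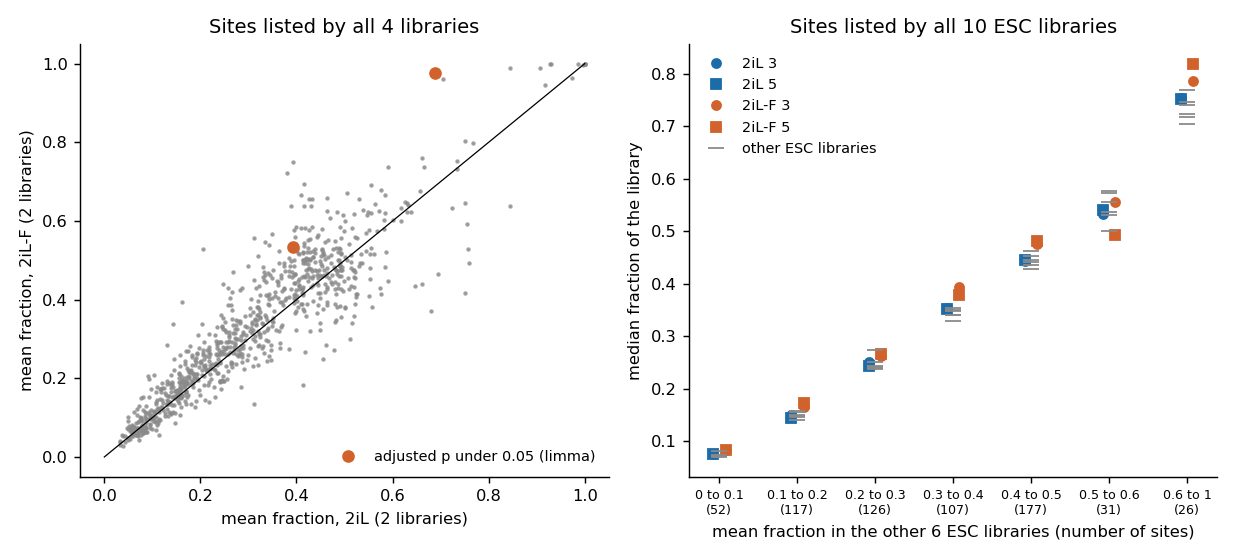
Left: mean fraction of reads with the changed base in 2iL (horizontal axis) and 2iL-F (vertical axis) at the 878 sites listed by all 4 libraries, one dot per site, with the line of equality and the 2 sites past an adjusted p of 0.05 in orange. Right: median fraction per library (vertical axis) for sites grouped by their mean fraction in the other 6 ESC libraries (horizontal axis, number of sites in brackets). The 2iL-F points lie above the 2iL points in 6 of 7 groups and overlap them between 0.5 and 0.6.

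Single sites that passed the test were few. limma on the log2 allele odds called 2 sites higher in 2iL-F and 0 lower, 0.228% of the 878, while 104 had an unadjusted p under 0.05. The clearest was an intergenic A>C site on chromosome 14 (position 5484241) in a segmental duplication. Its fractions were 0.707 and 0.67 in 2iL and 0.985 and 0.969 in 2iL-F, so nearly every 2iL-F read carried the changed base (log2 odds 3.84, SE 0.592, adjusted p = 0.00883 by limma). The other was an intergenic C>T site on chromosome 5 (position 98153474) outside duplications, at 0.397 and 0.39 in 2iL and 0.543 and 0.523 in 2iL-F (log2 odds 0.81, SE 0.148, adjusted p = 0.0282). Without any 1 of the 4 libraries the log2 odds stayed at 3.63 to 4.33 and at 0.75 to 0.87. Neither site passed then (adjusted p from 0.514 to 0.646, limma), in a fit of 2 libraries against 1 that has little power.

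The next sites by p did not pass. Wnk3, an X-linked kinase of ion transport, had an intronic site at 0.358 and 0.363 in 2iL and 0.443 and 0.447 in 2iL-F (adjusted p = 0.0705, limma). Cdc40, a splicing factor, had an intronic site at 0.377 and 0.294 against 0.524 and 0.57. Nt5c3, a nucleotidase, had the synonymous L122L at 0.446 and 0.373 against 0.657 and 0.673. Gjd4, a gap junction gene, had an intronic site at 0.345 and 0.351 against 0.564 and 0.569. The odorant receptor gene Olfr1329 had I35V at 0.046 and 0.053 against 0.083 and 0.1, on 387 to 470 reads. The remaining 3 of the 10 sites with the lowest p were intergenic and in segmental duplications. In each of these 8 sites both 2iL-F libraries were above both 2iL libraries, with adjusted p from 0.0705 to 0.141.

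Libraries of 1 side differed no more than read sampling gives. Over the 878 sites the mean chi-square per site between library pairs, with 1 expected from sampling alone, was 0.954 within 2iL and 0.890 within 2iL-F. Across sides it was 1.22 to 1.30. The 5 same-condition pairs of the ESC libraries ranged from 0.867 to 1.05 at the 636 common sites, so this holds for each condition. At those sites 2iL against 2iL-F gave 1.24 to 1.38. All other pairs of different conditions gave 0.98 to 1.67, so the values across these sides lay within that range. The 2 libraries of a side had different lists and read numbers and were kept as 2.

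Read depth was higher in 2iL-F on chromosome 8. For each library the log2 ratio of its depth to the control depth was taken at the 878 shared sites, less the library's own median, and summarised by chromosome. On chromosome 8 (57 sites) the median was 0.25 and 0.26 in 2iL and 0.43 and 0.55 in 2iL-F. The means were 0.25 ± 0.00529 (SD, n = 2) and 0.49 ± 0.0823, a difference of 0.24 (exact permutation p = 0.333, the smallest possible). For scale, 3 copies over 2 in every cell is 0.58 on this axis, and the measured difference was 0.24. Its cause was not tested, and copy number, capture and feeder DNA cannot be told apart here. Over all sites the chromosome 8 difference was the largest of the 19 chromosomes with at least 10 sites. Chromosome 9 followed at 0.17 (−0.13 and −0.07 in 2iL, 0.12 and 0.01 in 2iL-F). With at least 20 reads in every library and the control the order turned, with 0.21 on chromosome 8 and 0.23 on chromosome 9.

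Most chromosome 8 sites were higher in 2iL-F. The fitted depth difference was positive at 50 of the 57 sites, against 49.9% of all 878. It was positive at 23 of 30 sites on chromosome 9, 32 of 44 on chromosome 6 and 19 of 70 on chromosome 12. On chromosome 8 both 2iL-F libraries were above both 2iL libraries at 34 sites and below both at 2, against 220 (25.1%) and 206 (23.5%) of all 878 sites. Outside duplications and repeats (32 sites) the medians were 0.18 and 0.25 in 2iL and 0.44 and 0.48 in 2iL-F. The 19 sites nearest the start of the chromosome, to position 20410227, had medians of 0.32 and 0.47 in 2iL and 0.77 and 0.74 in 2iL-F. The 19 middle sites, to position 72100516, had 0.12 and 0.19 against 0.21 and 0.28. The last 19 had 0.20 and 0.28 against 0.62 and 0.70, so the sides did not overlap in any of the 3 stretches and lay closest in the middle. The median fraction on chromosome 8 was 0.185 and 0.191 in 2iL and 0.208 and 0.204 in 2iL-F, so the sides did not overlap. Site by site, the median difference there was 0.01 in log2 odds against 0.14 over all sites, and both 2iL-F libraries were above both 2iL libraries at 8 sites and below both at 12.

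**Figure D4:**
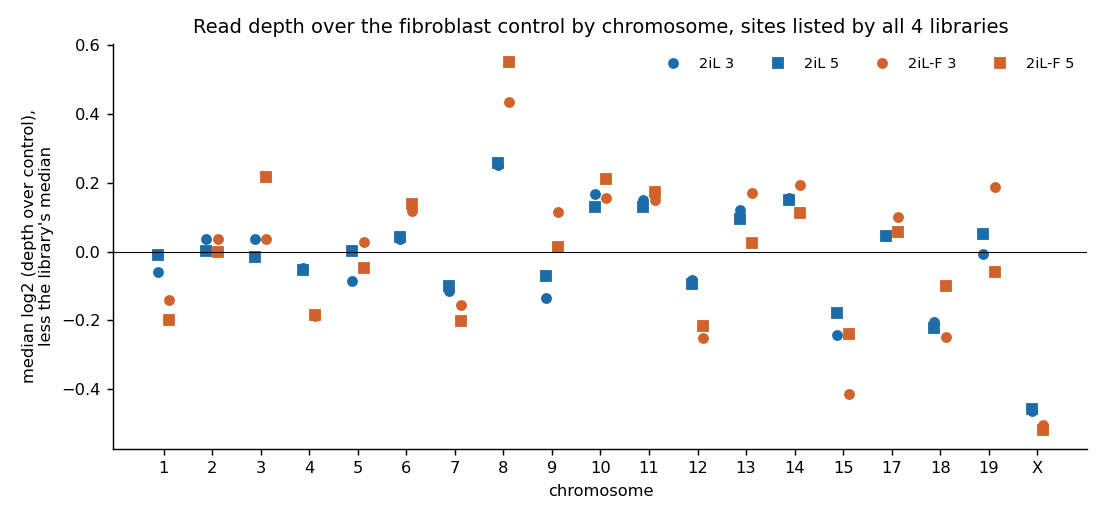
Median log2 ratio of library depth to control depth per chromosome, less the library's own median (vertical axis), at the sites listed by all 4 libraries, for each chromosome with at least 10 such sites (horizontal axis). Blue is 2iL, orange 2iL-F, circles library 3 and squares library 5. On chromosome 8 the 2iL-F libraries lie at 0.43 and 0.55 and the 2iL libraries at 0.25 and 0.26.

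The other 6 ESC libraries lay with 2iL on chromosome 8. At the 43 chromosome 8 sites listed by all 10 ESC libraries, the 2iL-F medians were 0.44 and 0.51 and those of the other 8 libraries 0.13 to 0.27. The exact permutation of 2 against 8 libraries gave p = 0.0222, and 0.211 after Benjamini-Hochberg adjustment over 19 chromosomes, so it did not pass. This comparison too was chosen after the values had been seen. Both 2iL-F libraries lay outside the range of the other 8 on 4 of the 19 chromosomes, namely 4, 6, 8 and X. At each library's own chromosome 8 calls, 102 to 113 per library, the medians were 0.49 and 0.49 in 2iL-F, 0.17 and 0.23 in 2iL, and 0.14 to 0.21 in the other 6.

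**Figure D5:**
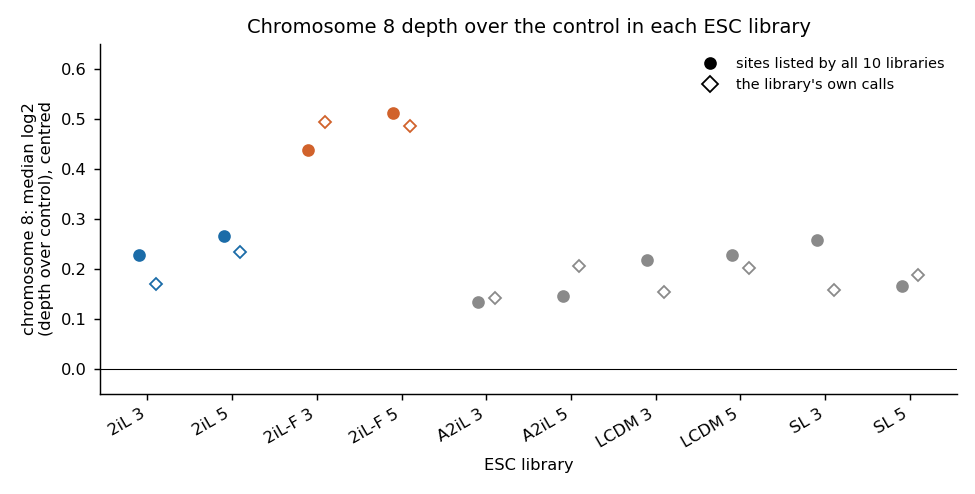
Median log2 ratio of depth to control depth on chromosome 8, centred on the library's median over all sites (vertical axis), for each of the 10 ESC libraries (horizontal axis). Filled circles use the 43 sites listed by all 10 libraries and open diamonds each library's own calls. The 2 orange 2iL-F libraries lie at 0.44 to 0.51 and the other 8 at 0.13 to 0.27.

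Over all sites, other chromosomes differed less between the sides than chromosome 8. With at least 20 reads in every library and the control, chromosome 9 differed more. Chromosomes 1, 4, 7 and 12 were lower in both 2iL-F libraries than in both 2iL libraries, with differences of −0.13, −0.13, −0.07 and −0.14. Outside duplications and repeats these became −0.06, −0.22, 0.06 and −0.06, so only that on chromosome 4 was larger. Chromosomes 3, 6 and 17 were higher in both 2iL-F libraries, with differences of 0.12, 0.09 and 0.03, and 0.01, 0.06 and 0.03 outside duplications and repeats. The X chromosome lay below the other chromosomes in all 4 libraries, at −0.46 and −0.46 in 2iL and −0.50 and −0.52 in 2iL-F (17 sites). The depth of a site is that of the deposited list and was scaled to the library and the control alone, so capture differences between libraries are part of these values.

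Among single sites, limma with voom weights called 12 higher (1.37%) and 14 lower (1.59%) in 2iL-F, and 163 had an unadjusted p under 0.05. Of the 12 higher sites, 4 were on chromosome 8, which held 57 of the 878 sites, and 0 of the 14 lower ones. Chromosomes 6 and 14, with 44 and 84 sites, held 3 higher sites each. Chromosome 12, with 70 sites, held 5 of the lower ones. The lowest p belonged to an intronic site of Gm21119 on chromosome 8, at 1108 and 1184 reads in 2iL and 1354 and 1557 in 2iL-F (log2 difference 0.30, SE 0.0398, adjusted p = 2.13e-05). The Gm21119 site lay in an annotated duplication or repeat, and the control carried the changed base there too. Cc2d1a, a regulator of transcription and signalling on chromosome 8, had I184T at 32 and 52 reads in 2iL and 77 and 75 in 2iL-F (log2 difference 0.82, SE 0.202, adjusted p = 0.0273). Without 2iL library 3 the Cc2d1a difference was 0.56 and did not pass (adjusted p = 0.199, limma), nor did it with the label number as a block (adjusted p = 0.0703). With quantile normalization the Gm21119 difference was 0, with an adjusted p of 1. That method gives sites of the same rank the same value, so it cannot show a depth difference at a site whose rank is unchanged. The other 3 of the 5 higher sites with the lowest p were an intronic site of Gm13251/Gm13139 and 2 intergenic sites, all in segmental duplications.

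The 5 lower sites with the lowest p lay mostly in duplicated genes. Gm21190 had P242L at 532 and 643 reads in 2iL and 449 and 489 in 2iL-F (log2 difference −0.37, SE 0.0707, adjusted p = 0.00267 by limma). Vmn2r45, a vomeronasal receptor gene, had I256T at 209 and 232 reads against 150 and 173 (log2 difference −0.49, SE 0.111, adjusted p = 0.0131). Without 2iL library 5 neither passed, at −0.29 (adjusted p = 0.103, limma) for Gm21190 and −0.48 (0.0685) for Vmn2r45. An intronic site of Pira6 and an intergenic site on chromosome 4 also lay in duplications, and an intergenic site on chromosome 13 lay outside them. With quantile normalization and with limma without voom weights there were 0 calls, with 138 and 107 sites at an unadjusted p under 0.05. With libraries scaled to the same median depth there were 7 higher and 75 lower sites, and the median of all sites moved to −0.10.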

How the data were processed

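Genomic DNA was captured as exome libraries with Agilent SureSelect reagents, per the labels' protocols. Build mm10 and the tools BWA, Picard and SAMtools stand in the submitters' processing notes, with no SNV caller named. The deposited lists give, per the file headers, for each SNV and for the M_MEF control a packed field with reads per allele, mean base quality, depth and alternative-allele fraction, and these other values were used as deposited. A site was identified by chromosome, position and bases. Side-restricted sites and genes were counted. Single values per library were compared by exact permutation. Sites listed by all 4 libraries were tested with limma 3.58.1 in R 4.3.3, on log2((alternative + 0.5)/(reference + 0.5)) with precision weights for fractions and with voom for depth scaled to the total, both with Benjamini-Hochberg adjustment over 878 sites and a threshold of 0.05. On simulated data the fraction test recovered 48% of sites changed by 1 log2 unit and 77% of those changed by 2 in the allele odds, and called 2 of 678 unchanged sites, each of 878 sites in all. The depth test recovered 73 and 98%, and called 8 of 678. The simulation drew alleles by read sampling alone and depth with an assumed spread, each site on its own and in a random direction. These rates may therefore differ in the real lists.

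Named sites were all missense, stop or splicing SNVs restricted to 1 side, the 10 lowest p of the fraction test with protein-changing sites past the threshold, the 5 lowest p per direction of the depth test, and list members with a call. The 17 sites with the strictest restriction, the genes shown with a different SNV per side, the promoter windows and the counts of coding SNVs were chosen after their values were seen. Members and lists were chosen with earlier results of these data known. Of 1432 gene symbols, 1346 matched the RefSeq table, 64 matched a synonym and 22 matched none. Flanking sequence outside promoter windows and protein sequences were not used here. A promoter window and the values of 1 list member are not reported here.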

Additional observations from a re-analysis of the deposited data

How the results depend on the processing

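Side-restricted sets depended on filters. Outside segmental duplications and repeats, 48 and 36 sites and 26 and 21 genes were restricted to 2iL and 2iL-F. With no call of the other side within 10 kb, 65 and 57 sites were left, and with that, at least 20 reads and no duplication or repeat, 27 and 15 sites and 24 and 16 genes. With at least 5 changed reads 32 genes were restricted to 2iL. Leaving out 1 library gave 211 to 492 sites and 74 to 169 genes for 2iL and 241 to 429 sites and 81 to 135 genes for 2iL-F, since 1 library of a side was then enough. Differences are 2iL-F minus 2iL. The difference in calls turned to 24.5 with at least 5 changed reads, and ran from −36 to 12 without 1 library. The protein-changing share turned to −0.916 outside duplications and repeats and to −0.440 without sites with changed reads in the control, and ran from −0.524 to 0.848 without 1 library. The C>G share turned to −0.0149 with at least 20 reads, −0.406 with at least 5 changed reads and −0.450 outside duplications and repeats. The C>T difference was 1.02 with at least 20 reads and 1.48 with at least 5 changed reads, and T>C was −1.04 outside duplications and repeats, where T>A was −0.0313. The T>G share turned to −0.231 with at least 20 reads and −0.148 at base quality 30 or more. Without 1 library C>G ran from −0.190 to 0.358, T>G from −0.198 to 0.576 and C>T from −0.313 to 0.750. The cause of these turns was not tested.

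The number of sites with a changed fraction was 0 outside duplications and repeats, 1 without precision weights, 10 by Fisher's exact test on summed reads, and 0 to 0 without 1 library. The number with a changed depth was 50 with at least 20 reads, 50 with at least 5 changed reads, 82 with libraries scaled to the same median, 0 with quantile normalization, 0 without voom weights, and 10 to 51 without 1 library. The difference on chromosome 8 was 0.17 to 0.27 without 1 library, 0.17 being without 2iL-F library 5, and the difference in median fraction 0.017 to 0.01875. With the label number as a replicate block, 7 sites had a changed fraction and 9 a changed depth. The deviations of same-numbered libraries correlated at 0.00136 for allele odds and 0.0334 for depth. Allele counts within a side differed no more than read sampling gives, so this check cannot tell whether the numbers pair the libraries. The comparisons of 2iL-F with 8 libraries were added after seeing the data. Depth limits the low fractions, which rest on few reads.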
